A study of Mus with 8 samples.

Results

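The receptors CAR, PXR and AHR and the cytochrome P450 genes of the Cyp1 and Cyp3a families were followed in mouse liver. Genes were chosen by symbol: Nr1i3 (CAR), Nr1i2 (PXR), Ahr, Por, Cyp1a1, Cyp1a2, Cyp3a11, Cyp3a13, Cyp3a25 and Cyp3a41a. Of these 10, 8 had a named row among the 23185 named rows of the table. Por and Cyp3a41a had no row under those symbols in the annotation used and were not analysed here. The values include a row whose ID carries the Entrez number of Por, but the annotation does not list it, so it was left unnamed. The study compared 4 arrays of liver RNA labelled LKB1 KO with 4 labelled Control, all from liver taken 48 h after partial hepatectomy, the removal of part of the liver that sets off regrowth. LKB1, encoded by Stk11, phosphorylates and switches on AMPK and its related kinases. The sources used here do not state strain, age, sex, how the gene was deleted or in which cells. Nothing in the labels says that the arrays come from separate animals, so the p-values speak only of the spread among these arrays, part of which may be technical.

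CAR and PXR are nuclear receptors that pair with RXR and switch on drug-metabolising genes in hepatocytes, and AHR is a ligand-activated factor that pairs with ARNT and drives the Cyp1 genes. CAR is held in the cytoplasm until it is activated, while PXR is activated by direct binding of bile acids, steroids and drugs. The P450 enzymes they control oxidise drugs, toxins, steroids and bile acids. In mouse liver Cyp1a2 and Cyp3a11 are abundant, chiefly around the central vein, and Cyp1a1 is nearly silent until an AHR ligand is present.

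Each array gave 1 log2 value per gene, as normalized by the submitters with RMA. Array medians ran from 3.75 to 3.96 log2 units, and mean correlation with the other arrays of the same group ran from 0.974 to 0.983. LKB1 KO 2 and Control 4 had the lowest such correlation in their groups. Stk11 was lower in all LKB1 KO arrays, at a mean of 4.25 ± 0.41 against 6.64 ± 0.13 log2 units in Control (SD, n = 4 each), a difference of -2.39 (SE 0.19, limma adjusted p = 0.000453). The position of its probes relative to the deletion is not known. Of 4 measured sex chromosome genes, 0 passed the test, at a limma adjusted p from 0.426 to 0.799. Of these, 0 had an unadjusted p under 0.05, a level that 13.4% of all genes reached. Xist, which is expressed in females, ran from 2.42 to 3.01, below the background level of 3.73 log2 units explained under Cyp1a1. The Y-linked genes lay above that level in every array: Eif2s3y at 6.80 to 7.48, Uty at 5.26 to 6.24 and Kdm5d at 4.32 to 5.60. Every array in both groups thus had the pattern of male tissue.

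Of the 8 measured genes, 4 fell in LKB1 KO and 0 rose (limma, adjusted over all 23185 genes). At an unadjusted p under 0.05, 1 of the 8, Nr1i2, was higher. Those that fell were the receptor genes Nr1i3 and Ahr and the P450 genes Cyp1a2 and Cyp3a13, each by about 1 log2 unit or more. Over all genes 1.49% were lower and 0.487% higher at this threshold, 1.98% in either direction. The same 4 genes had arrays that did not overlap between the groups, against 8.84% of all genes. The median difference of the 8 genes was -0.56 log2 units, and that of all genes was 0.02. Genes were chosen with earlier results of these data known, so this share is a description of the set.

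**Figure D1:**
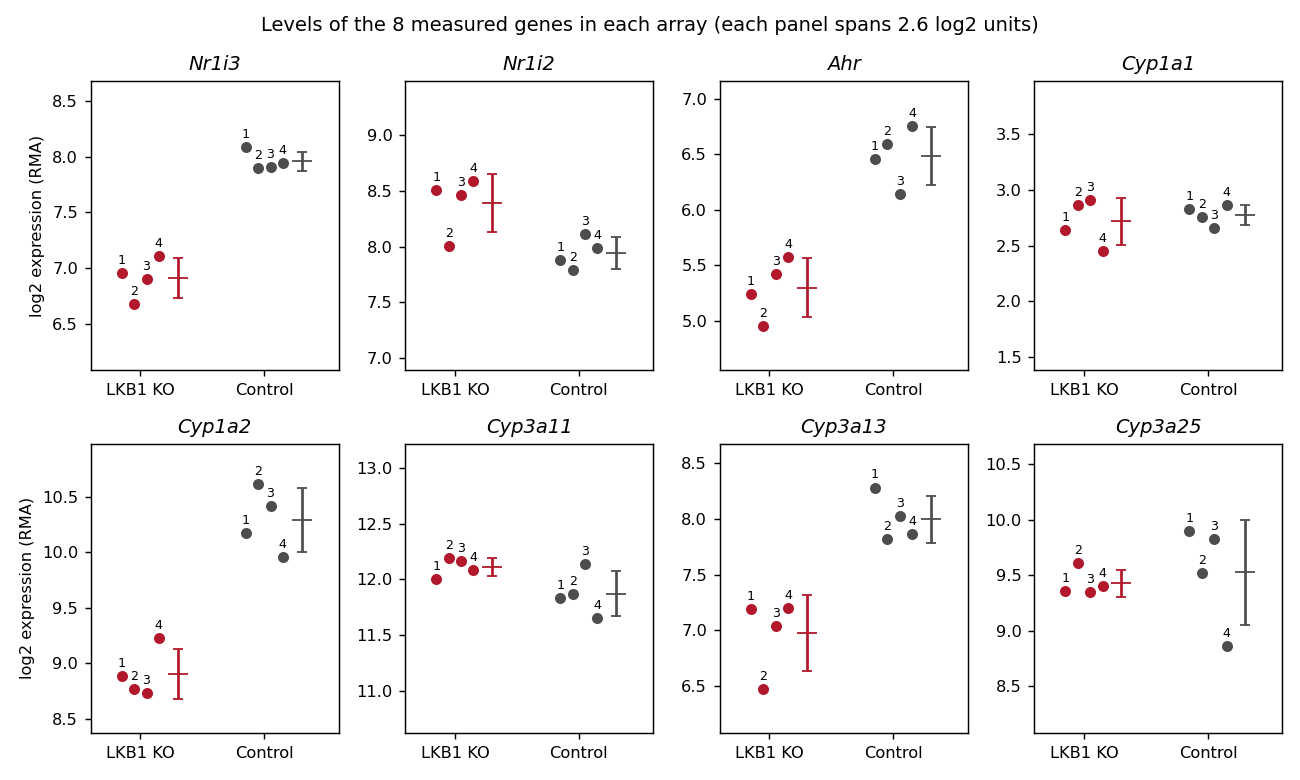
Log2 expression of the 8 measured genes in each array, LKB1 KO on the left and Control on the right of each panel. Points are arrays with their replicate number, and the bar beside them is the mean with SD (n = 4). Nr1i3, Ahr, Cyp1a2 and Cyp3a13 have no overlap between the groups, and the other 4 genes overlap.

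CAR expression was lower in all 4 LKB1 KO arrays. Nr1i3 (Entrez Gene 12355) had log2 values of 6.95, 6.68, 6.90 and 7.11 in LKB1 KO 1 to 4, against 8.08, 7.90, 7.91 and 7.94 in Control 1 to 4. The highest LKB1 KO array thus lay well under the lowest Control array, and the Control arrays spanned no more than 0.18 log2 units. The mean was 6.91 ± 0.18 in LKB1 KO and 7.96 ± 0.09 in Control (SD, n = 4 each), a 2.07-fold lower level (difference -1.05, SE 0.13, 95% confidence interval -1.33 to -0.76, limma adjusted p = 0.00324). With single arrays left out the difference lay between -1.12 and -0.97, and the adjusted p reached at most 0.0151. In a bulk liver sample, fewer cells of a type and less RNA per cell cannot be told apart.

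AHR expression fell to a similar degree. Ahr (Entrez Gene 11622) stood at 5.24, 4.96, 5.42 and 5.57 in LKB1 KO 1 to 4, against 6.46, 6.59, 6.14 and 6.76 in Control 1 to 4. LKB1 KO 2 was the lowest of all arrays and Control 4 the highest, so the arrays that stood farthest from their groups also widened this gap. The level was 2.28-fold lower in LKB1 KO (difference -1.19, SE 0.17, 95% confidence interval -1.57 to -0.80, limma adjusted p = 0.00731). Without both of those arrays the difference was -0.98 (limma adjusted p = 0.0245).

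PXR showed no such fall. Nr1i2 (Entrez Gene 18171) had log2 values of 8.51, 8.01, 8.46 and 8.59 in LKB1 KO 1 to 4, against 7.88, 7.79, 8.11 and 7.99 in Control 1 to 4. LKB1 KO 2 lay within the Control range and the other LKB1 KO arrays above it. The mean was 8.39 ± 0.26 in LKB1 KO and 7.94 ± 0.14 in Control (SD, n = 4 each). The difference of 0.45 (SE 0.15, 95% confidence interval 0.11 to 0.79) did not pass the test (limma adjusted p = 0.204). Without both LKB1 KO 2 and Control 4 it was 0.59 (limma adjusted p = 0.0732).

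The receptors changed unequally in these arrays. Within each array the log2 value of Nr1i2 was subtracted from that of Nr1i3, which cancels any shift common to both genes. This within-array gap averaged -1.48 in LKB1 KO and 0.02 in Control, so the change of Nr1i3 minus that of Nr1i2 was -1.50 log2 units (95% interval -1.76 to -1.24). The exact two-sided permutation test gave p = 0.0286, the smallest that 4 against 4 arrays can give, and 0.04 adjusted over the 7 pairs of related genes compared. This adjusted value rests on 5 of the 7 pairs reaching that smallest p, and some of these pairs share a gene. Nr1i2 against Ahr gave 1.64 (95% interval 1.18 to 2.10, exact p = 0.0286, adjusted p = 0.04). Nr1i3 and Ahr were not shown to differ in their falls, at 0.14 (95% interval -0.23 to 0.50, exact p = 0.371), an interval that still allows a gap of 0.50 log2 units.

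**Figure D2:**
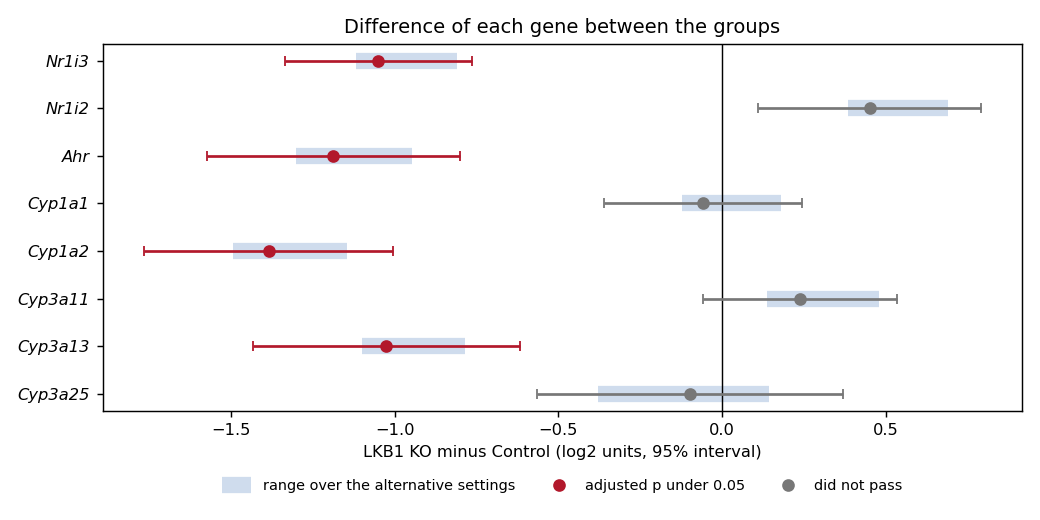
Each gene's difference (LKB1 KO minus Control, log2 units) with the 95% interval of the linear model (n = 4 arrays a group). Pale bars span the differences under the alternative settings. The intervals of Nr1i3, Ahr, Cyp1a2 and Cyp3a13 lie wholly below 0, while Nr1i2 lies above 0 without passing after adjustment.

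Between the adjacent Cyp1 genes, Cyp1a2 fell and Cyp1a1 lay in the background range. Cyp1a2 (Entrez Gene 13077), which encodes the constitutive Cyp1 enzyme of hepatocytes that metabolises caffeine and aromatic amines, had log2 values of 8.89, 8.77, 8.74 and 9.22 in LKB1 KO 1 to 4, against 10.17, 10.61, 10.41 and 9.96 in Control 1 to 4. Even the highest LKB1 KO array, LKB1 KO 4, stayed below the lowest Control array, Control 4. The level was 2.61-fold lower in LKB1 KO (difference -1.38, SE 0.17, 95% confidence interval -1.76 to -1.004, limma adjusted p = 0.00324), the largest of the 8 differences with all arrays. Single arrays left out moved it between -1.49 and -1.28.

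Cyp1a1 (Entrez Gene 13076), the inducible Cyp1 enzyme gene by which AHR activity is usually read, was dim in all arrays. Its log2 values were 2.64, 2.87, 2.91 and 2.45 in LKB1 KO 1 to 4, against 2.83, 2.75, 2.66 and 2.87 in Control 1 to 4. All 8 lay below 3.73 log2 units, the level that 95% of 1350 olfactory and vomeronasal receptor genes, which liver does not use, stay under. The groups overlapped fully (difference -0.059, SE 0.14, 95% confidence interval -0.36 to 0.24, limma adjusted p = 0.902). At this level a change of the transcript may not show on the array, so the unequal change of Cyp1a1 and Cyp1a2 (1.33, 95% interval 0.64 to 2.01, exact permutation p = 0.0286, adjusted p = 0.04) shows only that the measured values moved unequally. RefSeq's GRCm38 annotation places no protein-coding gene between the 2 loci.

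Among the Cyp3a genes the fall was seen in Cyp3a13 but not in Cyp3a11 or Cyp3a25. Cyp3a13 (Entrez Gene 13113), a Cyp3a gene expressed in liver and intestine, had log2 values of 7.19, 6.47, 7.03 and 7.20 in LKB1 KO 1 to 4, against 8.28, 7.82, 8.03 and 7.86 in Control 1 to 4. The groups did not overlap, and LKB1 KO 2 lay lowest. The level was 2.03-fold lower in LKB1 KO (difference -1.02, SE 0.18, 95% confidence interval -1.43 to -0.62, limma adjusted p = 0.0194). The call ended without LKB1 KO 3 (-1.05, limma adjusted p = 0.0561) or without Control 1 (-0.93, limma adjusted p = 0.0604).

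Cyp3a11 (Entrez Gene 13112), the classical PXR target and main drug-oxidising Cyp3a enzyme of mouse liver, had log2 values of 12.002, 12.19, 12.17 and 12.09 in LKB1 KO 1 to 4, against 11.83, 11.86, 12.14 and 11.65 in Control 1 to 4. Control 3 reached into the LKB1 KO range and the other Control arrays lay below it. The difference of 0.24 (SE 0.13, 95% confidence interval -0.06 to 0.53, limma adjusted p = 0.499) did not pass the test. With single arrays left out it ran from 0.16 (without Control 4) to 0.33 (without Control 3). Without both LKB1 KO 2 and Control 4 it was 0.14 (limma adjusted p = 0.736). The Cyp3a11 values are close to the highest in the table (12.7), where array signals can level off, so the difference may be understated.

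Cyp3a25 (Entrez Gene 56388), another liver Cyp3a enzyme gene, had log2 values of 9.36, 9.61, 9.35 and 9.40 in LKB1 KO 1 to 4, against 9.90, 9.52, 9.83 and 8.86 in Control 1 to 4. The LKB1 KO arrays lay close together inside a wide Control range set by Control 4. The difference was -0.10 (SE 0.21, 95% confidence interval -0.57 to 0.37, limma adjusted p = 0.893). It turned to 0.026 without Control 1, to 0.0018 without Control 3 and to 0.14 relative to hepatocyte markers. Without Control 4 it was -0.32 (limma adjusted p = 0.407). Without both LKB1 KO 2 and Control 4 it was -0.38 (limma adjusted p = 0.264). The difference thus has no settled size or direction.

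Within the family, the change of Cyp3a13 differed from those of its relatives. Against Cyp3a11 the gap was 1.26 log2 units (Cyp3a11 minus Cyp3a13, 95% interval 0.67 to 1.86, exact permutation p = 0.0286, adjusted p = 0.04). Against Cyp3a25 it was -0.93 (Cyp3a13 minus Cyp3a25, 95% interval -1.64 to -0.21, exact permutation p = 0.0286, adjusted p = 0.04). Cyp3a11 and Cyp3a25 were not shown to differ (0.34, 95% interval -0.11 to 0.78, exact permutation p = 0.114). In RefSeq's GRCm38 annotation, Cyp3a11 and Cyp3a25 are immediate protein-coding neighbours in the Cyp3a cluster, while 126 protein-coding genes lie between Cyp3a11 and Cyp3a13.

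**Figure D3:**
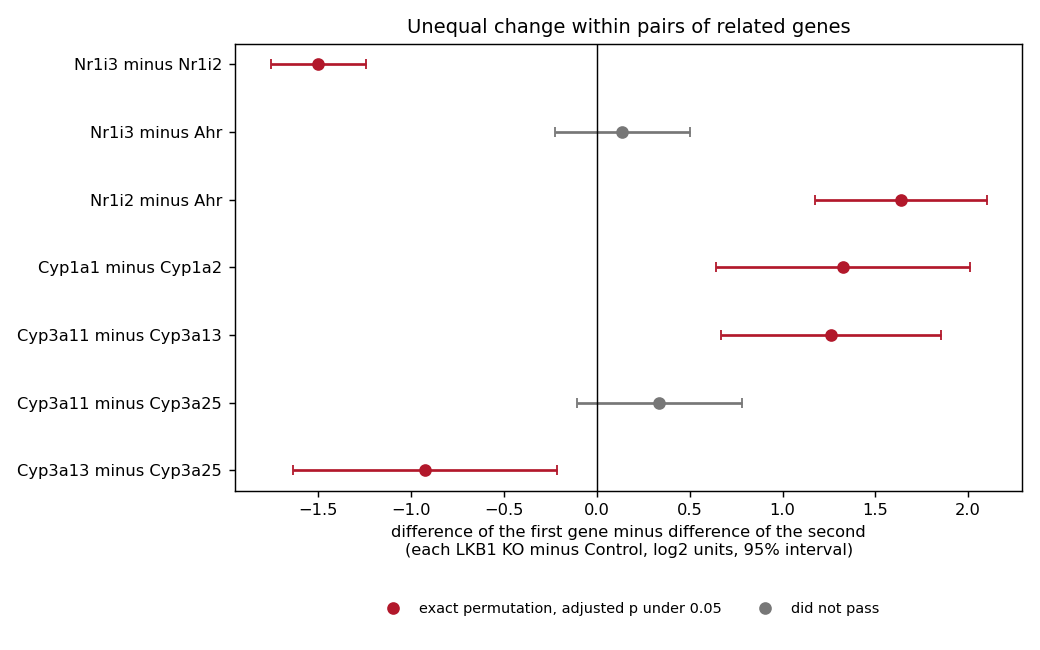
Change of the first gene minus change of the second for the 7 pairs compared, in log2 units, each change being LKB1 KO minus Control, with 95% intervals from the spread between arrays. Pairs that set Nr1i2 against Nr1i3 or Ahr, Cyp1a1 against Cyp1a2, or Cyp3a13 against another Cyp3a gene lie off 0. The remaining pairs have intervals that include 0.

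The other Cyp3a genes had 0 of 5 members past the limma threshold in either direction, 1 of 5 at an unadjusted p under 0.05 (higher), and a median of -0.15 log2 units. The nearest to it were Cyp3a44 (0.55, limma adjusted p = 0.325), whose product is found mainly in female mouse liver, and Cyp3a59 (-0.47, limma adjusted p = 0.414). Cyp3a44 stood at 0.34 without LKB1 KO 3, and Cyp3a59 at -0.26 without Control 3. Cyp3a16 and Cyp3a57 lay below 3.73 log2 units in all arrays. Cyp3a41b, named after its values were seen, stood at 9.84, 9.85, 9.91 and 9.89 in LKB1 KO 1 to 4, against 9.88, 9.58, 10.39 and 9.40 in Control 1 to 4. Its means were thus close (difference 0.055, limma adjusted p = 0.938), but the Control arrays were far more spread than the LKB1 KO arrays.

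A larger SD in Control was also found for Cyp3a25, Cyp3a11 and Cyp3a59, as a pattern chosen after the values were seen and not tested. Over all genes 47.3% had the larger SD in Control. The SD was 0.03 in LKB1 KO and 0.43 in Control for Cyp3a41b, and a ratio as high was found in 0.138% of all genes. The SD was 0.12 in LKB1 KO and 0.47 in Control for Cyp3a25, a ratio reached by 3.44% of genes. For Cyp3a11 it was 0.08 in LKB1 KO and 0.20 in Control, a ratio reached by 10.8%. For Cyp3a59 it was 0.21 in LKB1 KO and 0.50 in Control, a ratio reached by 11.1%. Cyp3a13 and Cyp3a44 had the larger SD in LKB1 KO. Of the 6 Cyp3a genes above background in some array, 5 had their lowest Control value in Control 4 and 4 their highest in Control 3. The share of all genes with this order was not counted, so it cannot be called particular to Cyp3a genes. The mean level of the CAR and PXR targets listed below was likewise lowest in Control 4 (6.64) and highest in Control 3 (7.33) among Control arrays. Transcripts of such close relatives can bind each other's probes, so these rows may not be separate measurements.

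The partners and regulators of the receptors gave mixed results. Of 14 measured dimerisation partners, chaperones and cofactors, 1 rose, 1 fell and 12 did not pass, with a median of -0.07 log2 units. The coactivator gene Ppargc1a rose by 1.34 (SE 0.17, limma adjusted p = 0.00401), with all LKB1 KO arrays (8.10 to 8.43) above all Control arrays (6.47 to 7.22). Rxra, the shared partner of CAR and PXR, fell by 0.69 (SE 0.12, limma adjusted p = 0.0161), at 8.62 to 8.81 in LKB1 KO and 9.22 to 9.50 in Control. The call of Rxra ended without LKB1 KO 1 or LKB1 KO 4 (limma adjusted p = 0.0551 and 0.0563).

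Of 13 measured regulators of the receptor and P450 genes, 4 fell and 0 rose by the limma test, with a median of -0.24 log2 units. Over all genes 1.49% fell and 0.487% rose. At an unadjusted p under 0.05, which 13.4% of all genes reached, 1 of the 13 was higher and 6 lower. The bile acid receptor gene Nr1h4 fell by 1.26 (limma adjusted p = 0.00473) and Ppara, the receptor of fatty acids, by 1.24 (limma adjusted p = 0.00895). Cebpa, a hepatocyte transcription factor gene, fell by 0.99 (limma adjusted p = 0.0108). Egfr, the growth factor receptor whose signalling keeps CAR in the cytoplasm, fell by 0.84 (limma adjusted p = 0.00832). The same count of 4 lower was found without both LKB1 KO 2 and Control 4. After hepatocyte marker centring 4 were lower and 1 higher, and the list median was 0.001. The higher gene was Cebpb (0.71, limma adjusted p = 0.0462), named after its values were seen.

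Known targets of CAR and PXR were not lower on balance. Of 30 measured, 2 rose, 0 fell and 28 did not pass. At an unadjusted p under 0.05, which 13.4% of all genes reached, 9 of the 30 were higher and 4 lower. The median was 0.27 log2 units, against 0.02 over all genes. Cyp2c55, a P450 gene strongly induced through CAR and PXR, stood at 6.13, 5.95, 6.24 and 6.40 in LKB1 KO 1 to 4, against 3.39, 4.22, 5.28 and 3.09 in Control 1 to 4. It rose by 2.18 (SE 0.39, limma adjusted p = 0.0190), with Control arrays that differed widely among themselves. The drug efflux pump gene Abcb1a rose by 1.24 (SE 0.26, limma adjusted p = 0.0383).

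Neither call was firm. That of Cyp2c55 ended without any array other than LKB1 KO 2, Control 3 or Control 4 (limma adjusted p from 0.0520 to 0.0636), and that of Abcb1a without any other than LKB1 KO 3 or Control 3 (0.0597 to 0.113). Without both LKB1 KO 2 and Control 4 the list gave 1 rise and 3 falls instead, in genes named here after their values were seen. Gadd45b rose (1.63, limma adjusted p = 0.00537), and Cyp2c50 (-1.98, limma adjusted p = 0.00240), Cyp2c54 (-1.71, limma adjusted p = 0.00316) and Ugt1a1 (-1.01, limma adjusted p = 0.0204) fell. With all arrays these 4 stood at 1.15, -1.45, -1.43 and -0.92 without passing.

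Cyp2b10, the most used reporter of CAR activity and also named after its values were seen, had log2 values of 7.08, 6.96, 7.50 and 6.91 in LKB1 KO 1 to 4, against 6.92, 4.54, 7.40 and 7.37 in Control 1 to 4. Apart from Control 2 the arrays of the groups overlapped. The difference was 0.55 (SE 0.53, limma adjusted p = 0.723), and -0.12 without Control 2.

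Of 11 measured genes on the list of AHR targets, which leaves out the Cyp1a genes, 0 passed the limma test in either direction, 2 were higher and 2 lower at an unadjusted p under 0.05, and the median was -0.05 log2 units. The nearest were Nqo1, a quinone reductase gene also driven by NRF2 (1.38, limma adjusted p = 0.0755), and the amino acid transporter gene Slc7a5 (-0.46, limma adjusted p = 0.108). Nqo1 had 6.13, 5.57, 6.24 and 6.87 in LKB1 KO 1 to 4, against 4.40, 5.18, 5.60 and 4.11 in Control 1 to 4. Of these, only LKB1 KO 2 and Control 3 overlapped, and without Control 3 Nqo1 passed (1.64, limma adjusted p = 0.0366). It also passed after quantile normalization (limma adjusted p = 0.0496), with array weights (0.0364) and after centring on hepatocyte markers (0.0299).

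P450 enzymes need electrons and heme. Of 16 measured genes of cytochrome b5, its reductase, heme synthesis and heme breakdown, 0 passed the limma test, 1 was higher and 1 lower at an unadjusted p under 0.05, and the median was -0.16 log2 units. Cyb5r3, the cytochrome b5 reductase gene, stood at -0.43 (limma adjusted p = 0.119), and Alas1, the rate-limiting enzyme gene of heme synthesis, at 0.43 (limma adjusted p = 0.361).

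**Figure D4:**
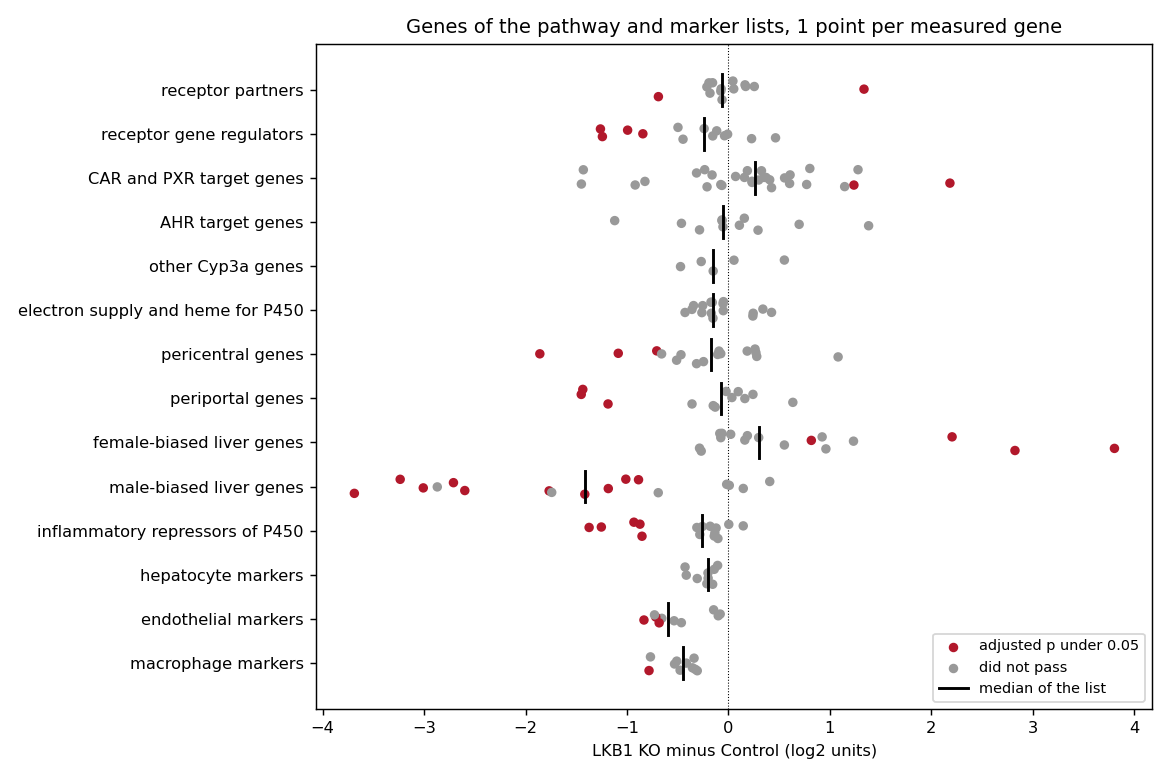
Each measured gene's difference (LKB1 KO minus Control, log2 units), by list. Red points passed the test over all genes, and black lines are list medians. With all arrays, regulators of the receptors and male-biased genes hold falls and no rise, and CAR and PXR targets have a median of 0.27 with 2 rises. Without both LKB1 KO 2 and Control 4, those targets gave 1 rise and 3 falls, in other genes. Several sex-biased genes were listed with their change in these data known.

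Zonation, sex bias and inflammation can each go with P450 levels, so genes of these programmes are given beside the members. Of 16 pericentral genes, which share the zone of Cyp1a2, 3 fell and 0 rose (median -0.18). These were the transporter gene Slc13a3 (-1.86, limma adjusted p = 0.00181), the P450 gene Cyp2e1 (-1.09, limma adjusted p = 0.00278) and the glutamine synthetase gene Glul (-0.71, limma adjusted p = 0.0239). Glul lost its call whenever 1 array was left out, save for LKB1 KO 2 and Control 4 (limma adjusted p from 0.0533 to 0.0836). Of 12 periportal genes, 3 also fell and 0 rose (median -0.08): Pigr (-1.45, limma adjusted p = 0.00131), Ctsc (-1.19, limma adjusted p = 0.00542) and Cyp2f2 (-1.44, limma adjusted p = 0.0238). Cyp2f2 lost its call without LKB1 KO 1, LKB1 KO 2, Control 1 or Control 2 (limma adjusted p from 0.0536 to 0.0810). Falls were thus found on the lists of both zones. Genes of both also stood higher without passing, the pericentral Oat at 1.08 (limma adjusted p = 0.0535) and the periportal Asl at 0.64 (limma adjusted p = 0.0666), named after their values were seen. Both had groups that did not overlap, and both passed as higher after quantile normalization (limma adjusted p = 0.0382 for Oat and 0.0336 for Asl) and after hepatocyte marker centring (0.0223 for Oat and 0.0170 for Asl).

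Of 17 male-biased liver genes, 10 fell and 0 rose (median -1.42), among them C6 (-1.77), Cyp4a12a (-3.01), Keg1 (-2.60) and Selenbp2 (-2.71; limma adjusted p from 0.000947 to 0.00287). Of 17 female-biased genes, 4 rose and 0 fell (median 0.30): Cyp17a1 (2.83), Lepr (3.81), Prom1 (2.21) and Cux2 (0.82; limma adjusted p from 0.00542 to 0.0188). Cux2 lost its call without LKB1 KO 3 or Control 1 (limma adjusted p = 0.0605 and 0.0597). Several of these genes were put on the lists with their change in these data known. Of the Cyp3a genes on the female-biased list, Cyp3a44 did not pass, as given above, and Cyp3a16 lay below 3.73 log2 units in all arrays.

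Inflammation is known to lower P450 transcripts. Of 15 measured genes of cytokines, their receptors and signalling and the acute phase, 5 fell and 0 rose by the limma test (median -0.26), and 0 were higher at an unadjusted p under 0.05. The 5 include the receptor genes Il1r1 (-1.37, limma adjusted p = 0.00278) and Il6st (-0.85, limma adjusted p = 0.00967) and the acute-phase genes Crp (-0.87, limma adjusted p = 0.00440) and Orm2 (-1.25, limma adjusted p = 0.0269). Orm2 lost its call without LKB1 KO 2, Control 1, Control 2 or Control 4 (limma adjusted p from 0.0595 to 0.0846). After hepatocyte marker centring 4 of the 15 were lower and the median was -0.02. Il6 lay below 3.73 log2 units in all arrays. Saa1, Saa2 and Hamp lay between 11.68 and 12.23, where array signals can level off. Any part of inflammation in the P450 levels was not tested.

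Markers of hepatocytes and of several other liver cell types also had lower means in LKB1 KO. All 9 measured hepatocyte markers did so, 0 of them past the limma threshold and 3 at an unadjusted p under 0.05 (median -0.20). Their mean level ran from 11.63 to 11.73 in LKB1 KO and from 11.89 to 11.97 log2 units in Control. With each array centred on that mean, an alternative chosen after this was seen, all genes shifted up, to a median of 0.26. On that scale the falls were -0.81 for Nr1i3 (limma adjusted p = 0.0108), -0.95 for Ahr (0.0211), -1.14 for Cyp1a2 (0.00897) and -0.78 for Cyp3a13 (0.0371). Nr1i2 passed as higher there, at 0.69 (limma adjusted p = 0.0355), where the median of all genes stood at 0.26. Rxra (-0.45, limma adjusted p = 0.0603) and Glul (-0.47, limma adjusted p = 0.0697) lost their calls on that scale. The count of CAR and PXR targets that rose was 5 there, against 2 as deposited and 3 after quantile normalization. Over all 23185 genes the higher calls numbered 981 there, 113 as deposited and 198 after quantile normalization, so the count of 5 goes with the upward shift of all genes. The marker levels used for centring lie near the highest value in the table (12.7), where array signals can level off.

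Of 10 endothelial markers, 3 fell and 7 were lower at an unadjusted p under 0.05 (median -0.60, all 10 means lower), and the mean level ran from 6.10 to 6.26 in LKB1 KO and from 6.48 to 6.83 in Control. Endothelial calls numbered 2 after quantile normalization and 1 after hepatocyte marker centring. Of 10 macrophage markers, 1 fell and 6 were lower at an unadjusted p under 0.05 (median -0.45, all 10 means lower), with a mean level of 6.14 to 6.58 in LKB1 KO and 6.50 to 7.36 in Control. That call, of the receptor gene Csf1r (limma adjusted p = 0.0378, named after its values were seen), was lost after quantile normalization (0.0635), after hepatocyte marker centring (0.0628) and without both LKB1 KO 2 and Control 4 (0.124). None of 10 stellate, 6 cholangiocyte and 10 leukocyte markers passed the limma test, with medians of -0.46, -0.06 and 0.07. At an unadjusted p under 0.05, 6 stellate, 0 cholangiocyte and 2 leukocyte markers were lower. The stellate mean level ran from 5.16 to 5.67 in LKB1 KO and from 5.71 to 6.18 in Control. The part of non-parenchymal cells in the falls of Ahr and the other members was not tested.

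For each gene that fell, the 3 other genes with the most similar profile over the 8 arrays were found by the root-mean-square (RMS) difference between profiles centred on their own mean. Nr1i3, whose own values varied by an RMS of 0.54 log2 units around their mean, was matched by Tpst2, Rnf167 and Tmem176a (RMS differences of 0.10, 0.10 and 0.11). Tpst2 encodes a tyrosylprotein sulfotransferase and Rnf167 a ubiquitin ligase, and they stood at -0.94 and -0.96, with Tmem176a at -1.01. Ahr was matched by Slc36a1, Ctsc and Trp53inp2 (0.11, 0.12 and 0.15). Cyp1a2 was matched by Cyp2c23, Ces3a and Nlrp6 (0.15, 0.18 and 0.19), of which the P450 gene Cyp2c23 stood at -1.33 and the carboxylesterase gene Ces3a at -1.35. Cyp3a13 was matched by the complement gene C4b, Albfm1 and Cpn2 (0.16, 0.17 and 0.17). All of these profiles share the step between the groups, so the match mainly reflects a change of like size.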

How the data were processed

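Expression of 8 arrays was deposited as normalized log2 values, 1 for each row in each array. RMA and Partek are named in the submitters' processing notes, without versions. Per the labels' protocols, TRIzol-extracted RNA was amplified and biotin-labelled with NuGEN kits. The sources used here do not state probe positions or a genome build. The platform annotation named 23185 of the 25206 rows, each with 1 symbol (several: 0 rows), and the remaining 2021 were left unnamed. No value was missing. Array number limits the precision.

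Groups came from the sample titles. A linear model with the group as its single term was fitted to all 23185 named genes with limma 3.58.1 in R 4.3.3 (lmFit, eBayes), two-sided, with Benjamini-Hochberg adjustment and a threshold of 0.05. The fit was tested on simulated data. Differences are LKB1 KO minus Control. Related members were compared by the within-array difference of their log2 values with an exact permutation test. Of 10 pairs planned, 7 could be computed. The members, 18 gene lists and the pairs were chosen with earlier results of these data known. Of 216 list genes measured, 9 stand on over 1 list, and 25 listed genes had no named row.

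From each list the members past the threshold are named, up to 4 by p with at least 1 from the rarer direction, or the 2 with the smallest p where none passed. For sex chromosome genes and cell type markers only counts, medians and levels are given. Placeholder symbols and members were left out of the search for similar profiles. Alternatives were the replicate number as a block, single arrays and both of LKB1 KO 2 and Control 4 left out, quantile normalization, median centring, no moderation, a robust prior with a trend, removal of the dimmest genes by mean level, array weights, all rows, an adjusted p under 0.01, and hepatocyte marker centring, added after the data were seen.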

Additional observations from a re-analysis of the deposited data

Results flagged for a closer look

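In 6 of 116 groups of 4 arrays, 1 array lay far from the other arrays of its group (by Dixon's test of the gap against the range). Chance flags about 1 such group in 20, so 6 of 116 is close to what chance alone gives. Cyp2b10, Cyp2c54 and Ugt1a1 were named after their values were seen, so that rate does not strictly hold for them. Rxra stood at 8.81 in LKB1 KO 3, above 8.62 to 8.65 in the other LKB1 KO arrays. Glul stood at 9.78 in LKB1 KO 2, below 10.15 to 10.20, and Trp53inp2 at 8.22 in the same array, below 8.61 to 8.67. Cyp2b10 stood at 4.54 in Control 2, below 6.92 to 7.40 in the other Control arrays. Cyp2c54 stood at 5.92 in Control 4, below 7.62 to 7.82, and Ugt1a1 at 6.51 in the same array, below 7.30 to 7.39.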

How the results depend on the processing

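The falls of Nr1i3, Ahr, Cyp1a2 and Cyp3a13 kept their direction under all 19 alternatives. That of Nr1i3 also kept its call under all of them (limma adjusted p from 0.00131 to 0.0321), and it was the only 1 of the 8 genes past the threshold without moderation of variances, where Ahr (0.0743), Cyp1a2 (0.0552) and Cyp3a13 (0.121) lost their calls. Cyp3a13 was also not called at an adjusted p under 0.01, and lost its call without 1 of 2 arrays, as given above. Single arrays left out gave 3 to 4 of the 8 genes past the threshold.

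The count of 458 genes past the threshold became 97 without moderation, 139 at an adjusted p under 0.01 and 721 with array weights. It ran from 213 to 491 with single arrays left out, being 213 without Control 2, 232 to 235 without LKB1 KO 1, LKB1 KO 3 or LKB1 KO 4, and 242 without Control 1. Of the calls 24.7% were higher in LKB1 KO as deposited, 36.8% after quantile normalization and 82.2% after hepatocyte marker centring, which called 1194 genes.

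The titles do not say whether the replicate numbers pair the arrays. Deviations of equal numbers correlated at -0.04, -0.11, 0.18 and -0.02, and those of unequal numbers at -0.18 to 0.24. Of 4 LKB1 KO arrays, 1 correlated best with its own number. So few values cannot tell whether the arrays were paired. With the replicate block 268 genes passed, and all 4 members kept their calls. Rxra, Abcb1a and Glul lost theirs (limma adjusted p = 0.0626, 0.106 and 0.0831). For the pairs of related genes, 5 of 7 also passed after quantile normalization. The exact test cannot pass with 3 against 4 arrays (smallest p 0.0571) or with sign flips over 4 numbers (0.125), so those settings give sizes only.

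Directions turned only in genes that were not called. Cyp1a1 ranged from -0.12 to 0.030 with single arrays left out and stood at 0.18 after hepatocyte marker centring. Cyp3a25 ranged from -0.32 to 0.026 and stood at 0.14. Cyp2b10 ranged from -0.12 without Control 2 to 0.84. Cyp3a41b ranged from -0.083 to 0.25 with single arrays left out and stood at -0.076 without both LKB1 KO 2 and Control 4. The cause was not tested. Over 58 named genes, 984 of 1101 values kept their direction and side of the threshold, 88 lost and 20 gained a call. RMA narrows differences of dim genes, which limits what can be said of Cyp1a1, Cyp3a16 and Cyp3a57.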
